A study of Mus musculus with 5 samples.

Results

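Long-term haematopoietic stem cell genes are a set of 32 genes whose transcripts are used to recognise or maintain the stem cells with lasting repopulating ability. All 32 had at least 1 probe set on the array, and they are described here among 18193 genes measured in all. A gene was represented by the probe set with the highest mean over the 5 arrays among those whose annotation names that gene alone. The rule used no difference between groups.

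The study compared 3 samples of bone marrow cells from control rtTA mice with 2 samples from MSI2-inducible mice, all of strain C57BL/6, on Affymetrix mouse whole-genome expression arrays. MSI2 (Musashi 2) binds RNA and regulates its translation, rtTA is the transactivator that switches on doxycycline-dependent transgenes, and the series title concerns MSI2 in normal and leukaemic blood formation. Sample labels describe sorted stem and progenitor cells with Sca1 and Kit, while the series text describes Kit-positive cells that lack Sca1, so the gate is uncertain, and the sources used here name neither the promoters driving rtTA and the transgene nor the doses, timing, ages or pooling of the animals. The labels number the samples within a group without saying that they are separate animals, so p-values reflect only how these arrays spread, and that spread may be technical.

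Long-term stem cells divide rarely and are held in the marrow niche by contacts with stromal and endothelial cells. Angiopoietin and its receptor Tek, adhesion molecules of endothelial junctions, efflux pumps and a small set of transcription factors are known to mark or keep them. Much of this programme is shared with endothelium, from which blood stem cells arise in the embryo, and it is lost as cells become committed progenitors.

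Levels are log2 of the deposited intensity of a probe set, and array values are given in the order of the replicate numbers, 1 to 3 for control and 1 to 2 for MSI2-inducible. Differences are MSI2-inducible minus control on the log2 scale, from a limma fit over all genes. Adjusted p-values follow Benjamini and Hochberg over all 18193 genes, with a threshold of 0.05. Levels of different genes are not compared, because probe sets differ in brightness.

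MSI2-inducible replicate 1 stood apart from the other arrays before any member was considered. It scored 56.5 on the first principal component of all genes, which held 41.8% of the variance, while the other arrays scored from -37.3 (control replicate 2) to -2.87. Its mature neutrophil markers had a median of 1.99 above the control mean, against -1.13 in MSI2-inducible replicate 2 and -0.61 to 0.33 in the control arrays. Erythroid markers in the same array had a median of 1.37, against 0.18 in MSI2-inducible replicate 2 and -0.27 to 0.31 in the control arrays. Of 13 erythroid genes measured 11 were higher and 2 lower, with a median difference of 0.78. An unadjusted limma p under 0.05 was reached by 4 of the higher ones, and none passed the test over all genes. Array medians of all probe sets lay between 46.4 and 48.3 intensity units, and the 3' minus 5' signal of Gapdh differed by -0.16 between groups (exact permutation p = 0.4, where 0.1 is the smallest that 3 arrays against 2 allow). Immediate early and heat shock genes were higher in both MSI2-inducible arrays, with medians of 1.03 and 0.65 above the control mean, against -0.17, 0.28 and -0.16 in the control arrays. Of 20 such genes 19 were higher, with a median difference of 0.86, and 13 had an unadjusted limma p under 0.05, but none passed the test over all genes. The early response factor Egr2 differed by 2.17 (limma adjusted p 0.128) and the nuclear receptor Nr4a1 by 2.74 (limma adjusted p 0.195). The labels give no sex, and of the 4 sex-linked genes measured the X-linked Xist lay between 12.49 and 12.90 in all 5 arrays. The Y-linked genes Eif2s3y, Kdm5d and Uty differed by -2.40, -2.09 and -0.34, none past the test, and the groups overlapped for Kdm5d and Uty. Whether these differences had a part in any result below was not tested, and in RNA from many cells, fewer stem cells and less RNA per stem cell cannot be told apart.

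Of the 32 members, 31 had a mean above 5.57, the median of all probe sets, and Jam3 (mean 4.92) did not. Since the brightest probe set stands for each gene, 58.1% of all genes were also above it. Kit, the stem cell factor receptor used in the sort, read 9.19, 9.35 and 9.66 in control and 8.80 and 9.50 in MSI2-inducible arrays. Procr, the protein C receptor of stem cells, read 10.42, 10.86 and 10.35 in control and 10.32 and 10.95 in MSI2-inducible arrays. The Sca1 gene Ly6a was not analysed here.

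None of the long-term stem cell genes passed the test between groups. Of all genes, 0.022% passed, 3 higher (0.0165%) and 1 lower (0.0055%), and the adjusted p of the members lay between 0.632 and 0.997. Of the members 24 were lower and 8 higher in MSI2-inducible cells, with a median difference of -0.17, while 49.6% of all genes were lower and the median over all genes was 0.00189. An unadjusted limma p under 0.05 was reached by 4 members, Mecom and Abcg2 with lower values and Trpc6 and Ptpn21 with higher values. That is 12.5% of the members, where 5.64% of all genes reached it, 2.77% with lower and 2.87% with higher values. The count of such lower members was 1 without control replicate 1, 2 without control replicate 2 and 0 without control replicate 3. With only 1 MSI2-inducible array left, such counts are not given, because the spread of that group is then unknown. The 2 groups had no overlap for 8 members, 4 lower and 4 higher, or 25.0% of them against 18.7% of all genes (9.39% lower and 9.27% higher).

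The direction depended on the array. MSI2-inducible replicate 1 was the lowest of the 5 arrays for 15 members (46.9%), whereas it was the lowest for 21.8% of all genes. The highest value of a member lay in that array once (3.12%), against 28.5% of all genes. MSI2-inducible replicate 2 was the lowest for 3 members (9.38%, against 20.8% of all genes) and the highest for 6 (18.8%, against 15.3%). Control replicate 3 held the highest value of 11 members (34.4%), against 13.1% of all genes. Against the mean of the controls, the members had a median of -0.27 in MSI2-inducible replicate 1 and -0.05 in replicate 2, and -0.06, -0.01 and 0.08 in the control arrays. Without MSI2-inducible replicate 1, 18 members were lower (56.25%, against 53.7% of all genes) and the median difference was -0.05. Without replicate 2, 24 were lower (75.0%, against 46.1% of all genes) and the median was -0.27.

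**Figure D1:**
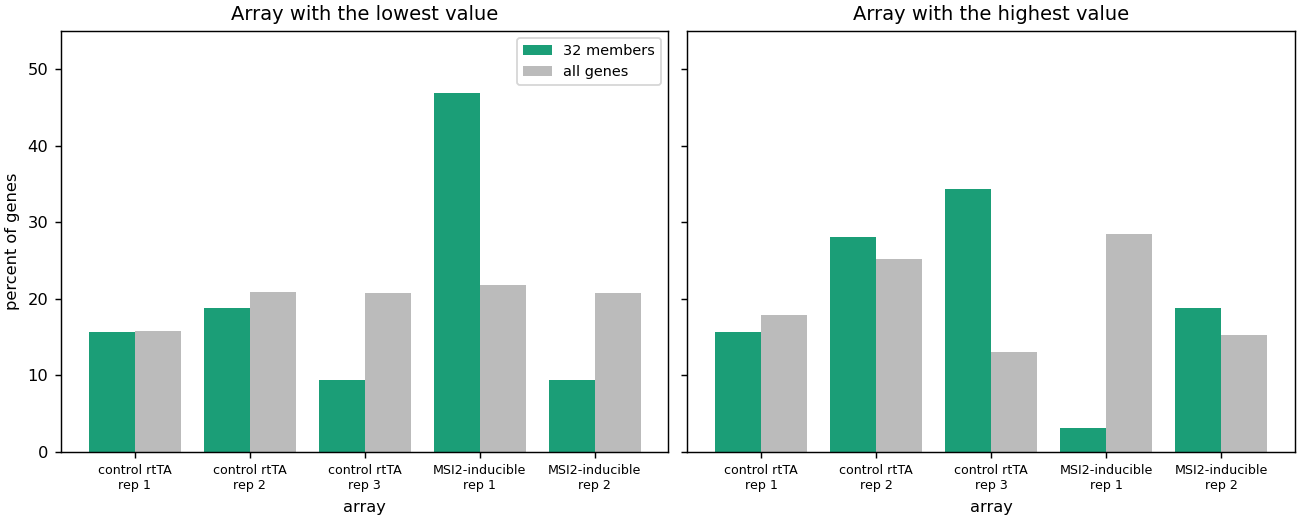
Share of genes, in percent, whose lowest value (left) or highest value (right) lay in each of the 5 arrays, for the 32 members (green) and all 18193 genes (grey). MSI2-inducible replicate 1 held the lowest value of 46.9% of members and 21.8% of all genes, and the highest value of 3.12% of members and 28.5% of all genes.

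**Figure D2:**
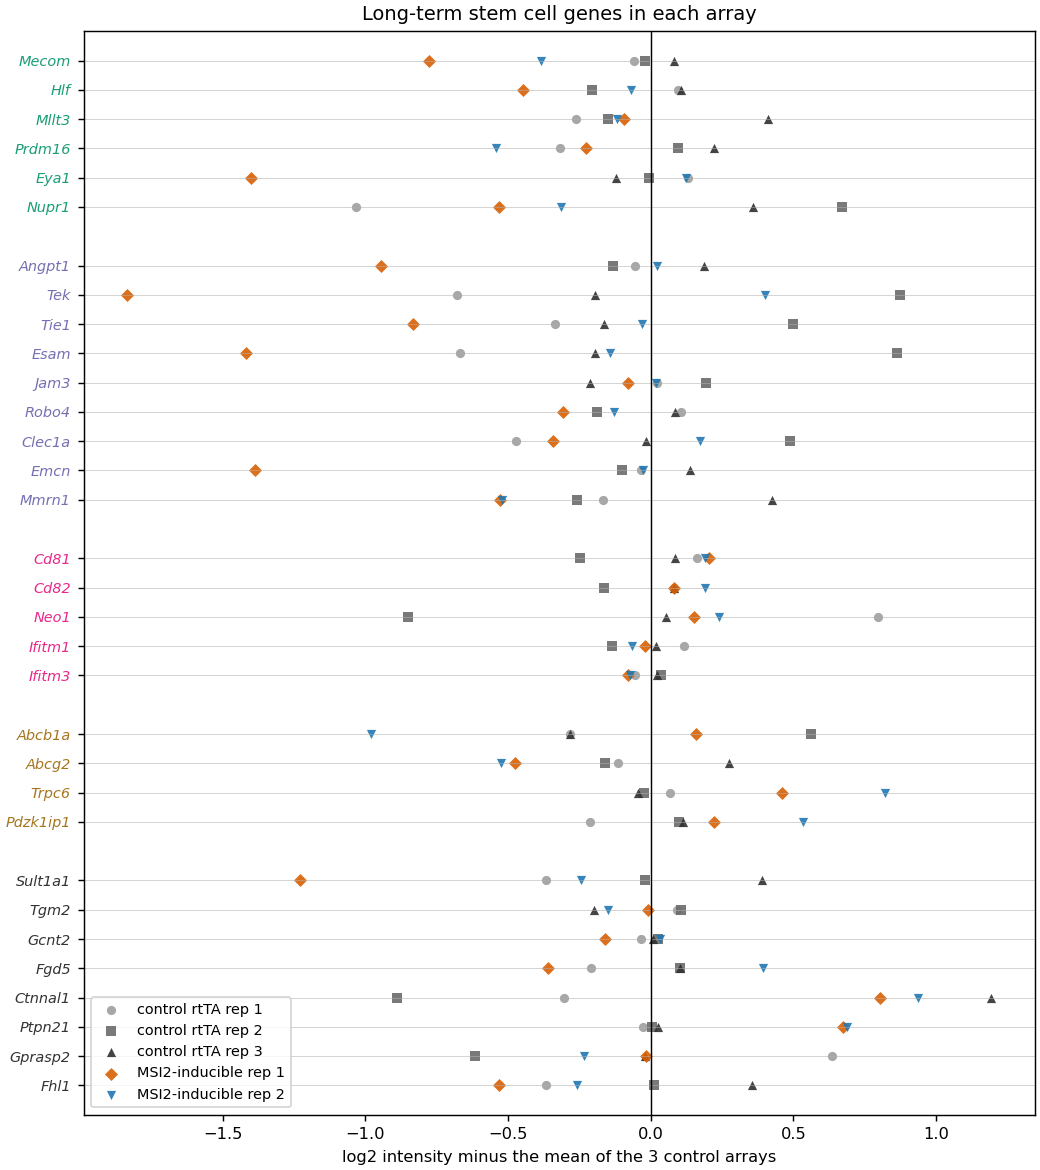
Each member's log2 intensity in each array, minus the mean of its 3 control arrays (vertical line at 0), with gene names coloured by role. The points of MSI2-inducible replicate 1 (orange) lie farthest left for Tek, Esam, Eya1, Emcn and Sult1a1, while those of replicate 2 (blue) lie among the control points for these genes.

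All 6 transcription and chromatin regulators were lower in direction, with a median difference of -0.40. Mecom, the zinc finger factor also known as Evi1 that stem cells need for their maintenance, read 9.84, 9.88 and 9.98 in control and 9.13 and 9.52 in MSI2-inducible arrays. Both MSI2-inducible values lay below all control values, and the control values lay close together. The difference was -0.58 (SE 0.19, 95% interval -1.05 to -0.11), with an unadjusted limma p of 0.0240 and an adjusted p of 0.870. The dimmer probe sets of Mecom did not show it. The next brightest read 4.28, 4.67 and 4.82 in control and 4.94 and 5.32 in MSI2-inducible arrays, higher in both by a mean of 0.54 but under the median of all probe sets, and the dimmest differed by 0.07. The mean of the 3 probe sets differed by 0.0105.

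Hlf, a leucine zipper factor of stem cells, read 11.17, 10.87 and 11.18 in control and 10.62 and 11.00 in MSI2-inducible arrays. Replicate 1 was below the controls and replicate 2 was among them, and the 2 probe sets of Hlf differed by -0.26 and -0.28. Prdm16, a zinc finger regulator of the same family as Mecom, read 8.75, 9.17 and 9.30 in control and 8.85 and 8.53 in MSI2-inducible arrays. For this gene replicate 2 was the lowest array and replicate 1 lay within the controls. The difference was -0.38 (SE 0.23, limma adjusted p 0.914), and all 4 probe sets of Prdm16 were lower, by -0.58 to -0.06. Mllt3, a reader of acylated histones, read 9.79, 9.90 and 10.46 in control and 9.96 and 9.93 in MSI2-inducible arrays, with the MSI2-inducible values inside the control range.

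Eya1 and Nupr1, like some other members given array by array, fell outside the rule for full values and were chosen after their values were seen. Eya1, a coactivator with phosphatase activity, read 8.56, 8.42 and 8.31 in control and 7.03 and 8.55 in MSI2-inducible arrays. Only replicate 1 was low, at -1.40 against the control mean, and replicate 2 lay at 0.12. The 2 other Eya1 probe sets differed by -0.16 and -0.55 and were also lowest in replicate 1. Nupr1, a small stress-induced nuclear protein, read 7.61, 9.31 and 9.003 in control and 8.11 and 8.33 in MSI2-inducible arrays, so its control arrays spanned more than the MSI2-inducible ones.

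The 9 members grouped with endothelium, where Angpt1 is counted as the ligand of Tek, were all lower in direction. Their median difference was -0.46, and all 9 were lower in MSI2-inducible replicate 1 than in replicate 2. Replicate 1 lay below every control array for 7 of them (77.8%, against 25.6% of all genes), and replicate 2 for 1 of them (11.1%, against 26.4% of all genes). Below the control mean lay all 9 in replicate 1, against 46.1% of all genes. In replicate 2 there were 5 (55.6%, against 53.7% of all genes). Against the control mean, their median was -0.83 in replicate 1 and -0.03 in replicate 2, and -0.17, 0.19 and -0.02 in the control arrays. None passed the test.

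Angpt1, the ligand that activates Tek, read 10.19, 10.12 and 10.44 in control and 9.31 and 10.27 in MSI2-inducible arrays. Its receptor tyrosine kinase Tek, also called Tie2, read 6.73, 8.28 and 7.21 in control and 5.57 and 7.81 in MSI2-inducible arrays. Tie1, the related receptor that pairs with Tek, read 8.20, 9.03 and 8.37 in control and 7.70 and 8.50 in MSI2-inducible arrays. For all 3 genes replicate 1 was the lowest array and replicate 2 lay within the control range. Differences were -0.46 (SE 0.31) for Angpt1, -0.72 (SE 0.75) for Tek and -0.43 (SE 0.35) for Tie1, with limma adjusted p of 0.922, 0.945 and 0.927. Without MSI2-inducible replicate 1 they were 0.02, 0.40 and -0.03, and without replicate 2 they were -0.94, -1.84 and -0.83.

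Esam, an immunoglobulin-type adhesion molecule of endothelial junctions that marks stem cells, read 7.21, 8.75 and 7.69 in control and 6.46 and 7.74 in MSI2-inducible arrays. Tek, Tie1 and Esam ranked the 5 arrays in one order, with control replicate 2 highest, then MSI2-inducible replicate 2, control replicates 3 and 1, and MSI2-inducible replicate 1 lowest. This order was shared by 258 of all genes (1.42%), and it was noticed in the data. Emcn, the sialomucin endomucin, read 7.73, 7.66 and 7.90 in control and 6.37 and 7.74 in MSI2-inducible arrays. Replicate 2 matched the controls, and replicate 1 lay at -1.39 against their mean. Over all 5 arrays Emcn differed by -0.71 (unadjusted limma p 0.128, adjusted p 0.912).

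The sequences before the starts of Tek, Tie1 and Emcn are shown because, of the members of this role with an entry in the table used, they lay lowest against the control mean in MSI2-inducible replicate 1. Robo4 and Mmrn1, whose lowest array was also replicate 1, lay at -0.31 and -0.53 and are not shown, and Esam and Angpt1 have no entry. Each is 250 bases of the RefSeq promoter table (GRCm38.p6), 5' to 3' on the gene's strand, ending at the base before the start. Capitals mark GGAA, the core bound by ETS factors such as Erg and Fli1, on either strand, and overlapping matches were counted.
Tek chr4:94739039-94739288, plus strand: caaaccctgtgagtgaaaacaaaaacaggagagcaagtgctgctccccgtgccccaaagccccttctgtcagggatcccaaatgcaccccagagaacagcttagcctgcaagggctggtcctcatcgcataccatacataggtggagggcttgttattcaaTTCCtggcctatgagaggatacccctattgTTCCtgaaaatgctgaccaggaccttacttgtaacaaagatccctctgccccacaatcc
Tie1 chr4:118489850-118490099, minus strand: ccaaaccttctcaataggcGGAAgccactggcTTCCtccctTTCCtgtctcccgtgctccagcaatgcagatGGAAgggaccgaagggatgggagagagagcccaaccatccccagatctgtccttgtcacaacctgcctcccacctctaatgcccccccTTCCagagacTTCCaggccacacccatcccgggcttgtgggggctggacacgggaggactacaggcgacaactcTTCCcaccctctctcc
Emcn chr3:137340828-137341077, plus strand: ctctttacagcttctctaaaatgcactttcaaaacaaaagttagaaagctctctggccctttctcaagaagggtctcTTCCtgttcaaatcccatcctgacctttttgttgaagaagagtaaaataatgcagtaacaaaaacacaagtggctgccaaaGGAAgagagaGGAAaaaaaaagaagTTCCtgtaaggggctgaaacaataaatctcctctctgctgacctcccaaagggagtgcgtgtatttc

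Tek held 2 such matches, Tie1 held 7 and Emcn held 4, beside a median of 3 over all 32851 promoter windows of this length, of which 93.4% held at least 1. The longer ETS form GGAAGT was in 8 of the 37 windows found for 26 members (21.6%), against 19.7% of all windows. For the other motifs searched on both strands, the shares were 48.6% against 32.7% for the Sp1 form GGGCGG, 21.6% against 13% for the E-box CAGCTG, 13.5% against 14.1% for the RUNX form TGTGGT, 0% against 9.99% for the GATA form AGATAA and 2.70% against 12.4% for TATAAA. Some members have several windows. These matches describe letters only, and no binding was measured.

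Of the other members of this role, Robo4, a receptor of the roundabout family tied to the retention of stem cells in marrow, differed by -0.22, the lectin-like receptor Clec1a by -0.08 and the junction protein Jam3 by -0.03. Mmrn1, a factor V binding protein of platelets and endothelium, read 8.68, 8.59 and 9.27 in control and 8.32 and 8.32 in MSI2-inducible arrays. Here both MSI2-inducible arrays were alike and below every control array, and the difference was -0.52 (SE 0.25, limma adjusted p 0.911). The brighter Jam3 probe set read 4.95, 5.13 and 4.72 in control and 4.85 and 4.95 in MSI2-inducible arrays, while the other, also under the median of all probe sets, differed by 0.66.

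**Figure D3:**
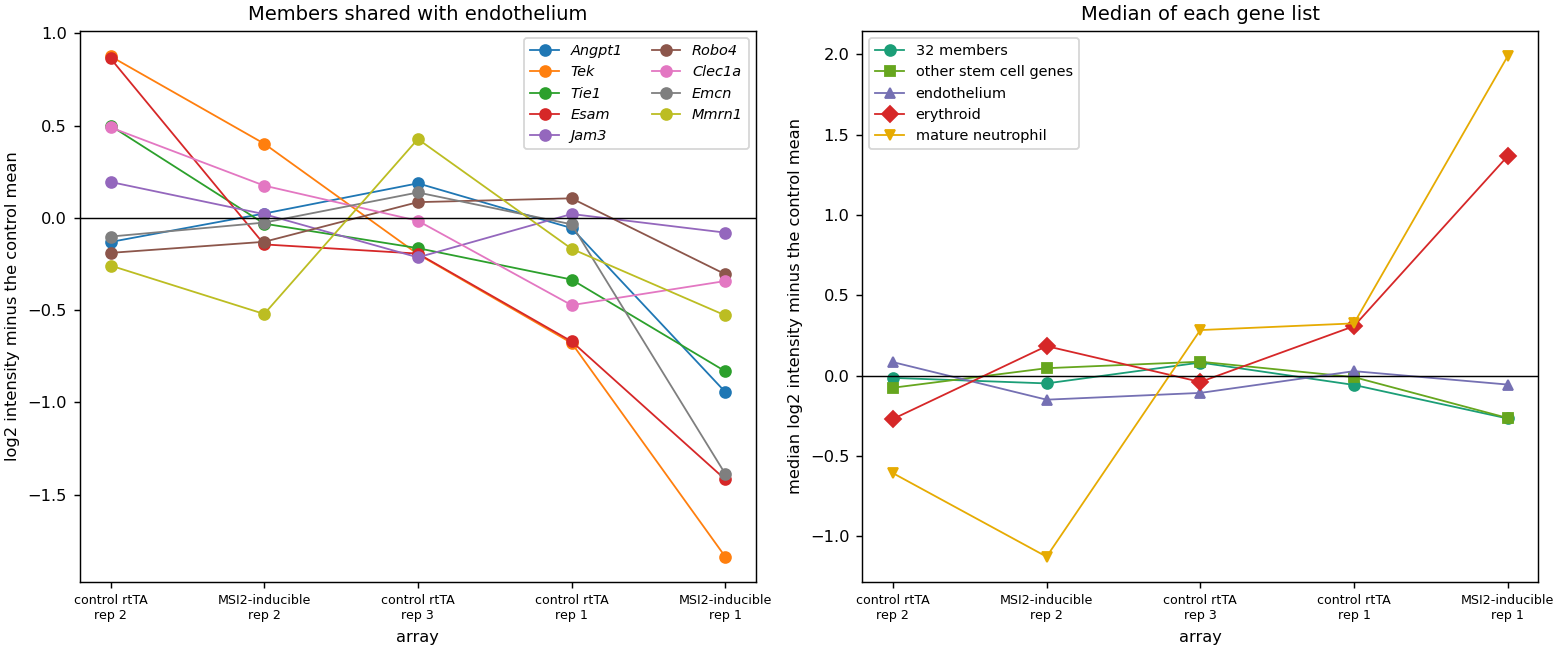
Left, log2 intensity minus the control mean of the 9 members grouped with endothelium, the ligand Angpt1 included. Right, the median of the same quantity for the 32 members, other stem cell genes and markers of endothelium, erythroid cells and mature neutrophils. Arrays are placed from the highest to the lowest value of Tek, and lines only join the points of a gene or list. In MSI2-inducible replicate 1 the neutrophil median was 1.99 and the erythroid median 1.37, the members' median was -0.27 and the endothelium median -0.06.

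Markers of endothelium outside the set were mostly dim. Of 16 measured, 13 had means under the median of all probe sets, 7 were higher and 9 lower, none passed the test, and the list had a median of -0.06 and -0.15 in the MSI2-inducible arrays, relative to the control mean. Control arrays had 0.03, 0.08 and -0.11. The transcription factor Sox18 read 5.50, 5.32 and 4.67 in control and 4.55 and 4.03 in MSI2-inducible arrays, with no overlap and a difference of -0.87 (unadjusted limma p 0.0323, adjusted p 0.870). Pecam1, an adhesion molecule of endothelial junctions and one of the brighter markers, read 8.53, 7.22 and 8.52 in control and 6.85 and 7.73 in MSI2-inducible arrays. It was lowest in MSI2-inducible replicate 1, and control replicate 2 was the lowest control. The other markers above the median of all probe sets were Eng and Egfl7. Eng read 7.60, 7.96 and 7.32 in control and 8.07 and 7.67 in MSI2-inducible arrays, a difference of 0.24. Egfl7 read 9.46, 9.72 and 9.44 in control and 9.41 and 9.41 in MSI2-inducible arrays, a difference of -0.13. The endothelial cadherin Cdh5 read 4.15, 6.88 and 3.89 in control and 4.17 and 3.74 in MSI2-inducible arrays, and control replicate 2 was its highest array. Of the 9 members grouped with endothelium, Tek, Tie1, Esam, Clec1a and the dim Jam3 were highest in control replicate 2 as well. These 5 are 55.6% of the 9, against 25.25% of all genes. Kdr, a receptor for vascular endothelial growth factor, lay between 4.48 and 4.76 in all 5 arrays. The summed intensity of the list, as log2, was 10.54 to 10.69 in control and 10.39 to 10.50 in MSI2-inducible arrays, and its part in these results was not tested. Cdh5, Kdr, Eng and Egfl7 were named after their values were seen.

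The 5 other membrane proteins had no common direction, with 3 higher, 2 lower and a median difference of 0.14. Ifitm3, an interferon-induced protein that hinders virus entry, read 12.70, 12.79 and 12.77 in control and 12.67 and 12.68 in MSI2-inducible arrays. These groups did not overlap, but the difference was -0.08 (95% interval -0.47 to 0.31, limma adjusted p 0.979). Its paralog Ifitm1 differed by -0.04 (95% interval -0.46 to 0.38). Of 21 interferon response genes outside the set, 17 were higher, the median difference was 0.38 and none passed the test. The tetraspanin Cd81, linked to the return of stem cells to rest, read 11.25, 10.84 and 11.17 in control and 11.29 and 11.28 in MSI2-inducible arrays, higher in both by a mean of 0.20 (SE 0.20). The related Cd82 differed by 0.14. Neo1, a netrin receptor, differed by 0.20 within control values of 5.67 to 7.31, and its 5 probe sets were all higher, by 0.08 to 0.90.

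Of the 4 transporters and channels 2 were lower and 2 higher, with a median difference of -0.02. Abcg2, the efflux pump behind the dye-excluding side population, read 9.11, 9.06 and 9.50 in control and 8.75 and 8.70 in MSI2-inducible arrays. Both MSI2-inducible values lay below the controls and close to each other, with a difference of -0.50 (SE 0.20, 95% interval -0.998 to -0.0041), an unadjusted limma p of 0.0487 and an adjusted p of 0.883. The other pump, Abcb1a or P-glycoprotein, read 6.07, 6.92 and 6.07 in control and 6.51 and 5.37 in MSI2-inducible arrays, so only replicate 2 was low.

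Trpc6, a calcium channel opened by diacylglycerol, read 6.87, 6.78 and 6.76 in control and 7.27 and 7.63 in MSI2-inducible arrays. All MSI2-inducible values were above all control values, and the difference was 0.64 (SE 0.19, 95% interval 0.18 to 1.10), with an unadjusted limma p of 0.0141 and an adjusted p of 0.835. Trpc6 had a single probe set, and its difference was 0.46 without MSI2-inducible replicate 2 and 0.82 without replicate 1. Pdzk1ip1, a small membrane protein of stem cells also called Map17, read 7.95, 8.26 and 8.27 in control and 8.38 and 8.69 in MSI2-inducible arrays. It was higher in both MSI2-inducible arrays than in every control, by 0.38 (SE 0.20, limma adjusted p 0.912), and its other probe set differed by 0.44.

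**Figure D4:**
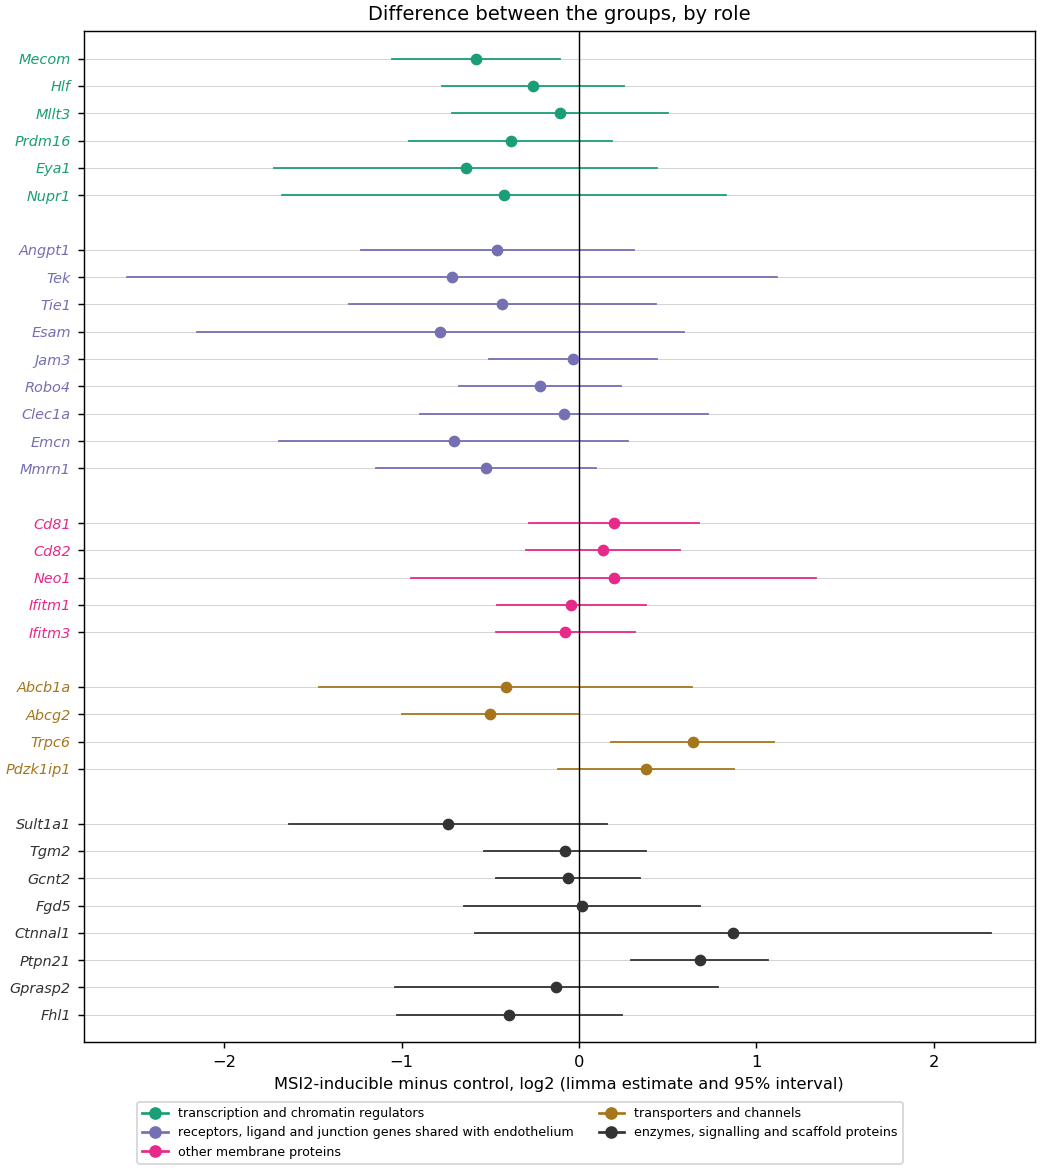
MSI2-inducible minus control difference of each member (point, log2) with limma's 95% interval (line), coloured by role. Intervals of Mecom, Abcg2, Trpc6 and Ptpn21 leave out 0 before adjustment over all genes, and none passed after it. Points of all regulators and of all members grouped with endothelium lie left of 0.

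Among the 8 enzymes, signalling and scaffold proteins 5 were lower and 3 higher, with a median difference of -0.07. Ptpn21, a tyrosine phosphatase with a FERM domain, had the smallest p of the members. It read 6.97, 7.005 and 7.03 in control and 7.68 and 7.69 in MSI2-inducible arrays, with little spread in either group and no overlap. The difference was 0.68 (SE 0.16, 95% interval 0.29 to 1.07), with an unadjusted limma p of 0.00514 and an adjusted p of 0.632. A dimmer Ptpn21 probe set went the other way, with 7.06, 7.19 and 6.26 in control and 5.81 and 6.79 in MSI2-inducible arrays, a difference of -0.53. The dimmest differed by -0.17, and the mean of the 3 by -0.00925.

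Fgd5, a guanine nucleotide exchange factor whose locus is used to label stem cells, read 6.90, 7.21 and 7.21 in control and 6.75 and 7.50 in MSI2-inducible arrays. The MSI2-inducible arrays lay on either side of the controls, and the difference was 0.02 (95% interval -0.65 to 0.68). Ctnnal1, the catenin-like protein catulin that also labels stem cells, read 5.93, 5.35 and 7.43 in control and 7.04 and 7.17 in MSI2-inducible arrays. Its difference of 0.87 was the highest of the members, yet control replicate 3 was above both MSI2-inducible arrays and the limma adjusted p was 0.922. Without control replicate 3 the difference was 1.47.

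Sult1a1, a sulfotransferase, read 6.02, 6.36 and 6.78 in control and 5.16 and 6.14 in MSI2-inducible arrays, again with replicate 1 alone below the controls. Fhl1, a LIM domain protein, read 7.55, 7.93 and 8.27 in control and 7.39 and 7.66 in MSI2-inducible arrays, and its difference of -0.39 stands against 0.26 in a dim probe set. Gcnt2, which branches poly-lactosamine chains, read 11.08, 11.14 and 11.12 in control and 10.95 and 11.15 in MSI2-inducible arrays. Its 8 probe sets differed by -0.68 to 0.10, with the brightest at -0.06. The transglutaminase Tgm2 differed by -0.08 and the receptor sorting protein Gprasp2 by -0.13. All 6 Tgm2 probe sets were lower, by -0.54 to -0.06.

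**Figure D5:**
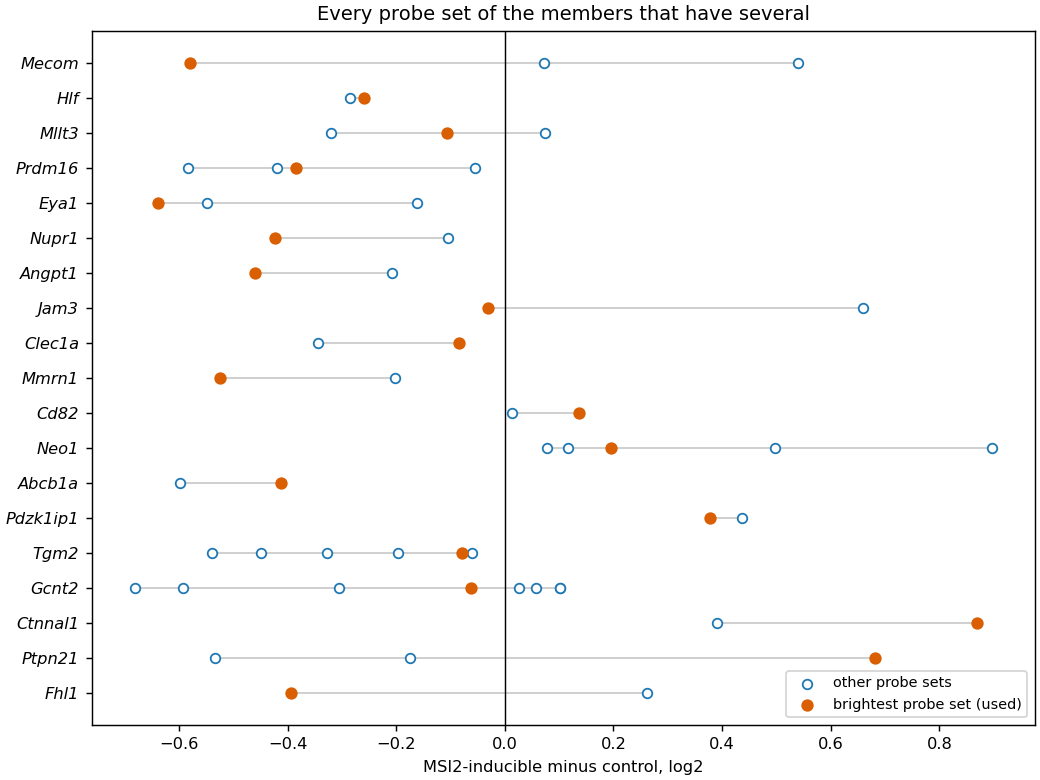
MSI2-inducible minus control difference (log2) of every probe set of the 19 members with more than 1, with the brightest, which stands for the gene, in orange and the others as open circles. Probe sets of 13 of these members lie on the same side of 0, and those of Mecom and Ptpn21 reach more than 0.5 from 0 on both sides. Those of Jam3, Fhl1, Gcnt2 and Mllt3 also lie on both sides of 0.

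Over all 70 probe sets of the members, 46 were lower and 24 higher. The other 13 members had a single probe set. Of the 19 with several, 13 had probe sets of 1 sign only, among them Hlf, Prdm16, Eya1, Angpt1, Mmrn1 and Pdzk1ip1. Within control arrays the members had a median SD of 0.21, beside 0.22 for all genes, and the SD ran from 0.03 for Ptpn21 to 1.08 for Ctnnal1. Between the 2 MSI2-inducible arrays the median gap was 0.24 for members and 0.30 for all genes, and it was largest for Tek, at 2.24.

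Stem cell genes outside the set were mostly lower in direction. Of 32 measured, none passed the test, 23 were lower and 9 higher, with a median difference of -0.10, and relative to the control mean the list had a median of -0.26 in MSI2-inducible replicate 1 and 0.05 in replicate 2. An unadjusted limma p under 0.05 was reached by 4 lower genes and 1 higher gene. Vwf, the von Willebrand factor of platelet-biased stem cells, which is also in the megakaryocyte and platelet list, read 8.59, 8.61 and 8.72 in control and 7.59 and 7.80 in MSI2-inducible arrays, below the controls in both, with a difference of -0.95 (limma adjusted p 0.461). The stem cell gene Trim47 differed by -1.13 (limma adjusted p 0.482), the transcription repressor Bcl6 by 0.89 and Slamf1, the receptor CD150, by -1.27. Of Slamf1, replicate 1 read 5.57 and replicate 2 read 7.22, against 7.36 to 7.99 in control arrays.

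Lists of the progenitors that follow stem cells had no gene past the test over all genes. Multipotent and lymphoid progenitor genes, 14 measured, had 6 higher and 8 lower and a median difference of -0.06. Granulocyte and monocyte progenitor genes, 12 measured, had medians against the control mean of 0.52 in MSI2-inducible replicate 1 and -0.43 in replicate 2. The control arrays themselves had 0.26, -0.32 and 0.09. Megakaryocyte and platelet genes, Vwf among them, had 3 higher and 10 lower of 13 and a median of -0.07. The platelet chemokine Pf4 read 10.05, 9.45 and 9.54 in control and 7.90 and 8.69 in MSI2-inducible arrays, below the controls in both, with a difference of -1.38 (unadjusted limma p 0.00461, adjusted p 0.616). The integrin subunit Itgb3 lay above the controls in both, with a difference of 0.80 (unadjusted limma p 0.0437, adjusted p 0.883). The list of cycling genes also holds the cell cycle inhibitors Cdkn1a, Cdkn1b and Cdkn1c. With these counted, it had 12 higher and 10 lower of 22 and a median of 0.03. Its only gene with an unadjusted limma p under 0.05 was the inhibitor Cdkn1a, higher by 1.23. None of the cycling or megakaryocyte genes passed the test.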

How the data were processed

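RNA of 5 samples was amplified linearly, labelled with biotin and hybridised, per the labels' protocols. The authors deposited linear intensities per probe set, which they had normalized between arrays. The submitters' processing notes list RMA, affy and R 2.11.0, and no source used here gives the return from log values. Median polish can give arrays equal values, as for Cd82, Abcb1a and Fgd5.

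The log2 was taken with no pseudocount. Probe sets with 1 gene symbol (34958 of 45101, with 932 having several and 9211 unnamed here) were named from the platform annotation, with symbols updated by Entrez ID (34754 matched) through the GRCm38.p6 gene table. The 64 control probe sets were left out. All genes were fitted by lmFit and eBayes of limma 3.58.1 (R 4.3.3), with group as the only term and two-sided tests, and the fit was tested on simulated data. The number of arrays limits the precision, with SEs of 0.16 to 0.75 for the members.

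Full array values were given for members with an unadjusted p under 0.05, groups that did not overlap, probe sets of opposite sign over 0.5 apart, and Mecom, Hlf, Fgd5, Prdm16, Mllt3, Tek, Tie1 and Angpt1. Members, lists and motifs were chosen with earlier results of these data known. Alternatives covered probe set choice, low values, a pseudocount of 16, normalization, the variance model and array weights. Others were the replicate number as a block without control replicate 3, the threshold and each array left out. Figures were drawn with matplotlib 3.10.9.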

Additional observations from a re-analysis of the deposited data

How the results depend on the processing

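No member passed the test in any alternative, and the lowest limma adjusted p of a member was 0.241, for Eya1 and Emcn without MSI2-inducible replicate 2. Of the 32 members, 18 kept their direction in every alternative. Genes past the test numbered 3 higher and 1 lower, and 1 higher and 0 lower with a pseudocount of 16, 1 higher with array weights, 2 lower with low values left out and with quantile normalization once more, and 3 lower at an adjusted p of 0.10. With any array left out 0 to 0 genes passed in each direction (unadjusted p under 0.05 for 1026 genes with all arrays), and a lone MSI2-inducible array was assumed to vary like the controls. Members with an unadjusted limma p under 0.05 numbered 2 lower, and 1 under each of 5 alternatives. These were trend and robust on, array weights, low values left out, the mean of probe sets, and probe sets tested singly. Such members numbered 2 higher, and 1 with the mean of probe sets. When probe sets were tested singly, only the brightest of each member was counted. Dimmer Gcnt2 probe sets were lower at unadjusted limma p of 0.0355 and 0.0498, and a dimmer Neo1 probe set was higher at 0.0497. With a control array left out, members with an unadjusted limma p under 0.05 numbered 0 to 2 lower and 2 to 3 higher. The median difference of the members was -0.27 with array weights and -0.267 to -0.0485 with an array left out. The replicate block used only replicates 1 and 2 of each group, so changes under it also reflect the absence of control replicate 3. It left 0 genes past the test in either direction. Mllt3 turned to 0.0994, the value it also had without control replicate 3. Under the block the lower members with an unadjusted limma p under 0.05 were Tek (0.0378) and Esam (0.0181). The higher ones were Ptpn21 (0.0379) and Ctnnal1 (0.00419). Mecom (0.0925), Abcg2 (0.202) and Trpc6 (0.0684) did not reach that threshold under the block. Only 2 numbers are shared, nothing in the labels pairs them, and deviations of same-numbered arrays correlated at 0.134 and 0.0990.

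Directions turned for 14 members, none past the test, and the cause was not tested. With the mean of probe sets they were Mecom (0.0105), Jam3 (0.31) and Ptpn21 (-0.00925). Without _x_at and _s_at probe sets Mllt3 was at 0.0736, and with array weights Jam3 was at 0.0180, Clec1a at 0.0319 and Neo1 at -0.00600. With an array left out, values ran from -0.24 to 0.0994 for Mllt3, -1.40 to 0.12 for Eya1, -0.94 to 0.0230 for Angpt1, -1.84 to 0.40 for Tek, -0.14 to 0.0667 for Jam3, -0.34 to 0.17 for Clec1a, -0.23 to 0.59 for Neo1, -0.11 to 0.0159 for Ifitm1, -0.98 to 0.16 for Abcb1a, -0.16 to 0.0336 for Gcnt2, -0.36 to 0.39 for Fgd5 and -0.43 to 0.19 for Gprasp2. Low signal limits Jam3 and the dim probe sets of Mecom and Fhl1.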

Other observations

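Some long-term stem cell genes are neighbours in the mouse gene order of the GRCm38.p6 table. No protein-coding gene lies between the interferon-induced Ifitm1 and Ifitm3, whose differences were -0.04 and -0.08. Between Nupr1 and Sult1a1 lies 1 such gene, Sgf29, and the pair differed by -0.42 and -0.74. The endothelial receptor Robo4 and the junction gene Esam are separated by 2 genes, Robo3 and Msantd2, and differed by -0.22 and -0.78. In MSI2-inducible replicate 1, Sult1a1 and Esam lay at -1.23 and -1.42 against their control means, and Nupr1 and Robo4 at -0.53 and -0.31. Neighbours were looked up after the values were known, and no test was made.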
